A study of Mus musculus with 6 samples.

Results

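Fatty acid oxidation genes were examined in the interscapular brown fat depot of newborn mice, sequenced as bulk RNA from the entire depot. The set was taken by gene symbol from the deposited table and holds 34 of its 19241 genes: 5 carnitine transferases, 7 acyl-CoA dehydrogenases, 6 later enzymes of the mitochondrial spiral, 4 auxiliary isomerases and reductases, 3 electron transfer flavoprotein genes, 4 acyl-CoA thioesterases and 5 peroxisomal enzymes. The control group, called WT, consisted of 3 libraries from newborns carrying a floxed Fstl1 gene. The KO group consisted of 3 libraries from newborns in which Fstl1, the gene of a secreted glycoprotein, was deleted in the Myf5 lineage, the source of skeletal muscle and of a large share of this fat depot. The labels name no driver construct, no strain, no sex and no pooling, and do not say whether each library came from its own animal, so the p-values measure the spread between these libraries. The comparison asks how the depot's transcripts differ when the Myf5 lineage lacks Fstl1, which the study's title ties to wasting of the depot.

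Brown fat burns fatty acids to make heat. Long-chain acyl groups enter the mitochondrion as carnitine esters, made by carnitine palmitoyltransferase 1 on the outer membrane and converted back to acyl-CoA by carnitine palmitoyltransferase 2 inside. There they are shortened by repeated rounds of dehydrogenation, hydration, a further dehydrogenation and thiolytic cleavage, and the electrons of the first step pass through the electron transfer flavoproteins to the respiratory chain. Peroxisomes shorten very long and branched chains by a parallel route that starts with an oxidase, and acyl-CoA thioesterases release free fatty acids from acyl-CoA in several compartments.

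Fstl1 itself was at 55.5, 130.04 and 54.4 FPKM (fragments, scaled to transcript length and library size) in WT replicates 1 to 3 and at 7.93, 13.1 and 8.77 FPKM in KO replicates 1 to 3. Every KO library lay below every WT library, as the labels state (log2 fold change −2.79 in limma, SE 0.33, adjusted p 0.00979). Xist lay at 44.8 to 85.5 FPKM in WT and at 0.05 to 0.92 FPKM in KO, and the Y-linked genes Eif2s3y and Ddx3y lay at 0 to 0.23 FPKM in WT and at 59.5 to 99.3 FPKM in KO. Sex therefore went with genotype in all 6 libraries, and the effect of the deletion and that of sex cannot be told apart in any difference below. The libraries rested on an estimated 13800000 to 15100000 reads. Of 14 brown adipocyte markers listed, Ucp1 and Cidea were abundant in every library, while others were low, such as Prdm16 at 1.68 to 5.25 FPKM. Ucp1, the uncoupling protein of heat production, was at 4366 to 6255 FPKM in WT and 1695 to 3592 FPKM in KO without overlap, with a KO mean at 48.9% of the WT mean that missed the threshold (limma, log2 fold change −1.08, adjusted p 0.0804). Cidea, a lipid droplet protein, was at 1299 to 1988 FPKM over all libraries, while Alb, which marks hepatocytes, was at most 0.33 FPKM.

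Other cells of the depot also moved between libraries. The summed level of 22 skeletal muscle markers was 451 FPKM in KO replicate 1 and 1703 to 2472 FPKM in the other 5 libraries. Of the 21 muscle markers tested, 20 had a lower KO mean of log2(FPKM + 1) and 0 were called in limma, and 2 had an unadjusted p under 0.05, against 19.2% of all genes tested. The summed level of 12 macrophage markers was 145 to 213 FPKM in WT and 204 to 278 FPKM in KO, with all 12 higher in KO by the mean of log2(FPKM + 1), 0 called and 6 at an unadjusted p under 0.05 (19.2% of all genes tested). The summed level of 14 brown adipocyte markers overlapped between the groups, at 21866 to 27666 FPKM in WT and 21207 to 23075 FPKM in KO. Most of this sum was Fabp4, at 14059 to 17389 FPKM in WT and 14000 to 15846 FPKM in KO. Of these 14 markers, 7 did not overlap between the groups (24.9% of all genes tested), 8 had an unadjusted p under 0.05 (19.2% of all genes tested), and 4 were called lower, against 1.01% of all genes tested. The 4 called were Elovl3, Plin1, Plin5 and Lep, with KO means at 17.6%, 37.9%, 39.0% and 7.3% of the WT means. Lep was low, at 0.91 to 2.22 FPKM in WT and 0.06 to 0.13 FPKM in KO, so its share rests on few reads. By the mean of log2(FPKM + 1), 10 of the 14 were lower and 4 higher in KO. The higher ones, Ppargc1a, Adipoq, Pparg and Cidea, had KO means at 146.8%, 117.8%, 115.0% and 107.5% of the WT means. Their groups overlapped. The summed level of 10 erythroid markers was 14404 FPKM in WT replicate 3 and 3077 to 5074 FPKM in the other 5 libraries. For 10 endothelial markers the sum was 582 to 803 FPKM in WT and 605 to 661 FPKM in KO. In whole tissue, fewer cells of a type and less RNA per cell cannot be told apart, and the part of these shifts in the differences below was not tested.

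The 1 gene called, the thioesterase gene Acot1, has a near-identical copy in Acot2, so the sequences of both are shown first. Acot1 encodes a cytosolic thioesterase for long-chain acyl-CoA and Acot2 its mitochondrial counterpart. Both lie on the plus strand of chromosome 12 in GRCm38, Acot2 (Entrez gene 171210) at chr12:83987861-83993877 and Acot1 (Entrez gene 26897) at chr12:84009502-84017670. Their coding sequences, of 1359 and 1257 bases, aligned over 1223 columns with 95.8% identity. The stretches below come from the first exon and start where the alignment starts, at chr12:84009516-84009635 for Acot1 and chr12:83988031-83988150 for Acot2. Capitals mark the 9 of 120 bases at which the copies differ.
Acot1: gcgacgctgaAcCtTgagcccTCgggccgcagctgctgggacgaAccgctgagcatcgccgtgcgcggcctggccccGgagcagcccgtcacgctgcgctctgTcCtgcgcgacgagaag
Acot2: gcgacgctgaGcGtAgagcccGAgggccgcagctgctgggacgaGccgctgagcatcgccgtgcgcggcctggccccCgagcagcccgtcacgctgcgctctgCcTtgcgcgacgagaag
Coding bases 1 to 129 of Acot2, at chr12:83987902-83988030, lie before this stretch and encode the front of the mitochondrial protein, which the cytosolic enzyme lacks. Capitals mark the start codon.
Acot2 front: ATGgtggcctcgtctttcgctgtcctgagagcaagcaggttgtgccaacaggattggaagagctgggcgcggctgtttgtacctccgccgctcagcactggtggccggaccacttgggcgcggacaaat
Of all windows of 50 bases along the Acot1 transcript, 23.7% occur without a mismatch in Acot2, and 16.5% of windows of 100 bases do. How reads from such windows were shared between the copies is not given in the sources used here, so the split between Acot1 and Acot2 is uncertain. The same holds for the peroxisomal thiolase genes Acaa1a and Acaa1b, whose coding sequences were 96.5% identical.

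WT means of the 34 genes ran from 1.87 to 1695 FPKM, with mitochondrial enzymes at the top. On the FPKM scale, which is per length and so allows genes to be compared, 5 genes had a WT mean of at least 1000 FPKM. These were Acadl (1695 ± 77.2 FPKM, SD, n = 3), the dehydrogenase for long chains, both subunits of the electron transfer flavoprotein (Etfb, 1323 ± 205 FPKM, and Etfa, 1157 ± 59.3 FPKM), the trifunctional protein subunit gene Hadhb (1134 ± 34.8 FPKM) and the thiolase gene Acaa2 (1119.6 ± 207 FPKM). Acadl stood apart from the next gene in the WT libraries. From Etfb down to Hadha the ranges of neighbouring genes overlapped, so the order of neighbours is not resolved, although every WT value of Etfb, Etfa and Hadhb lay above every WT value of Acadvl, Hadh and Hadha. In all, 24 of the 33 neighbouring pairs in the WT order had overlapping ranges, and 19 of the 34 genes had a WT mean of at least 100 FPKM. The lowest were Acox3 (5.74 ± 1.34 FPKM), a peroxisomal oxidase for branched chains, Acaa1b (4.76 ± 1.79 FPKM) and the thioesterase gene Acot11 (1.87 ± 1.42 FPKM). On a 1 kb transcript, 3 reads would come to 0.199 to 0.218 FPKM at these depths, so Acot11 rests on few reads in the libraries where it is lowest.

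**Figure D1:**
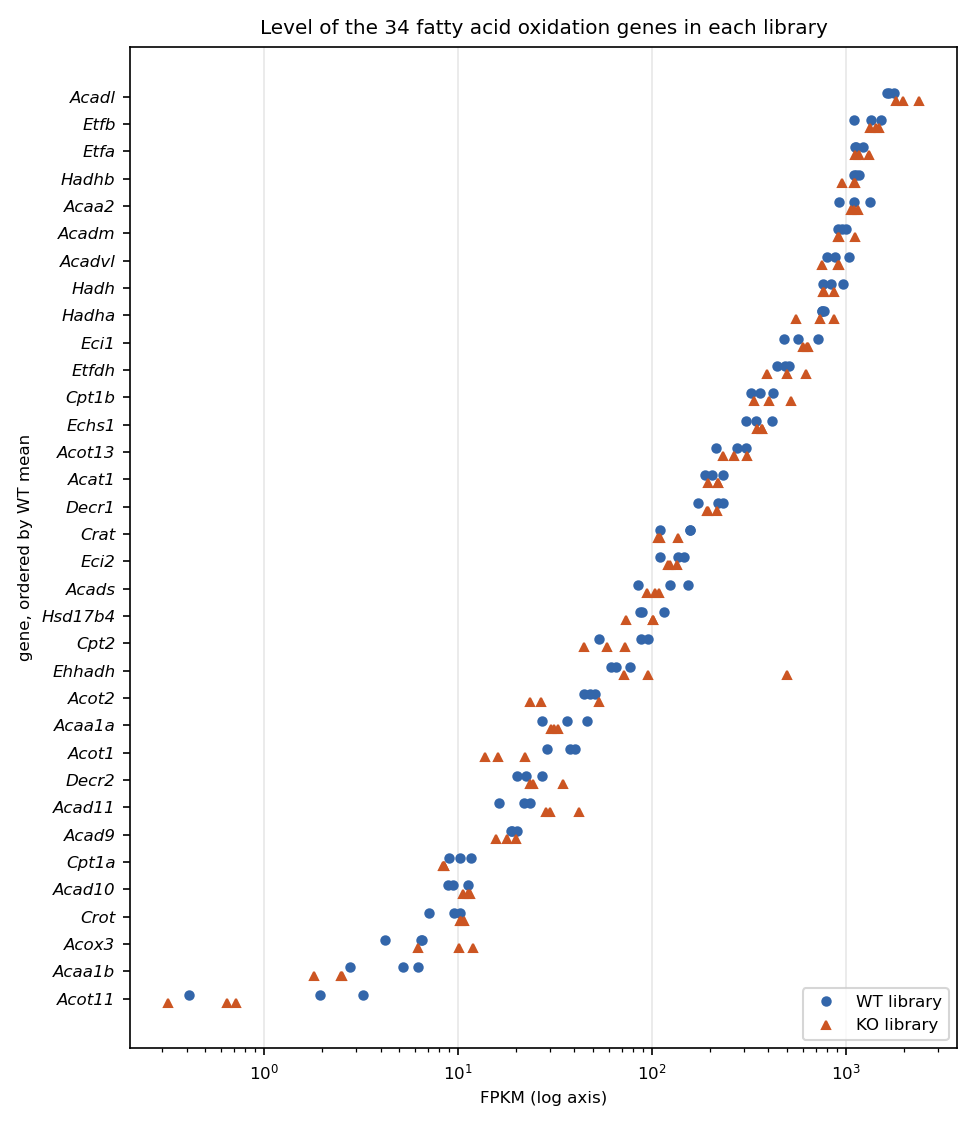
FPKM of each of the 34 oxidation genes in every library, on a logarithmic axis, with genes ordered by WT mean; circles are the 3 WT and triangles the 3 KO libraries. Acadl is highest at 1636 to 2402 FPKM, Acot11 is lowest, and the single triangle at 501 FPKM in the Ehhadh row is KO replicate 3.

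Together the 34 transcripts made up 2.54% to 2.55% of the summed FPKM in the WT libraries, and 2.80%, 2.39% and 2.92% in KO replicates 1, 2 and 3. The KO libraries thus lay on both sides of a narrow WT range. WT replicate 1 was the lowest of the 6 libraries for 16 of the 34 genes, and KO replicate 2 for 11. WT replicate 3 was the highest for 12 genes and KO replicate 3 for 9. These counts use FPKM without further scaling, and the same count was not made over all genes. The summed FPKM was lowest in WT replicate 1 (486449) and highest in WT replicate 3 (556968). It was 523128 in KO replicate 2 and 503600 in KO replicate 3. The part of these library totals in the counts was not tested.

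KO was compared with WT in limma on log2(FPKM + 1), in a fit across the 13331 genes whose mean over the 6 libraries reached 0.5 FPKM, with p-values adjusted over all of them by the Benjamini-Hochberg method. All 34 oxidation genes passed that filter. Of them 1, Acot1, passed an adjusted p of 0.05, and it was lower in KO, while 0 were called higher. Over all genes tested 2.21% were called, and 1.01% were called lower. At an unadjusted p under 0.05 there were 4 of the 34 genes, against 19.2% of all genes tested. The values of WT and KO did not overlap in 6 of the 34 genes, against 24.9% of all genes tested. Of the 34 genes, 17 had a higher and 17 a lower KO mean on the log2 scale, with a median log2 fold change of −0.02, beside 0.01 over all genes tested, and 15 of them changed direction in at least 1 of 17 alternative fits. The fold change lay within 0.3 log2 units of 0 for 26 of the 34 genes, and 67.3% of all genes tested lay within that distance. For 27 of the 34 genes the 95% interval lay within 1 log2 unit either side of 0.

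**Figure D2:**
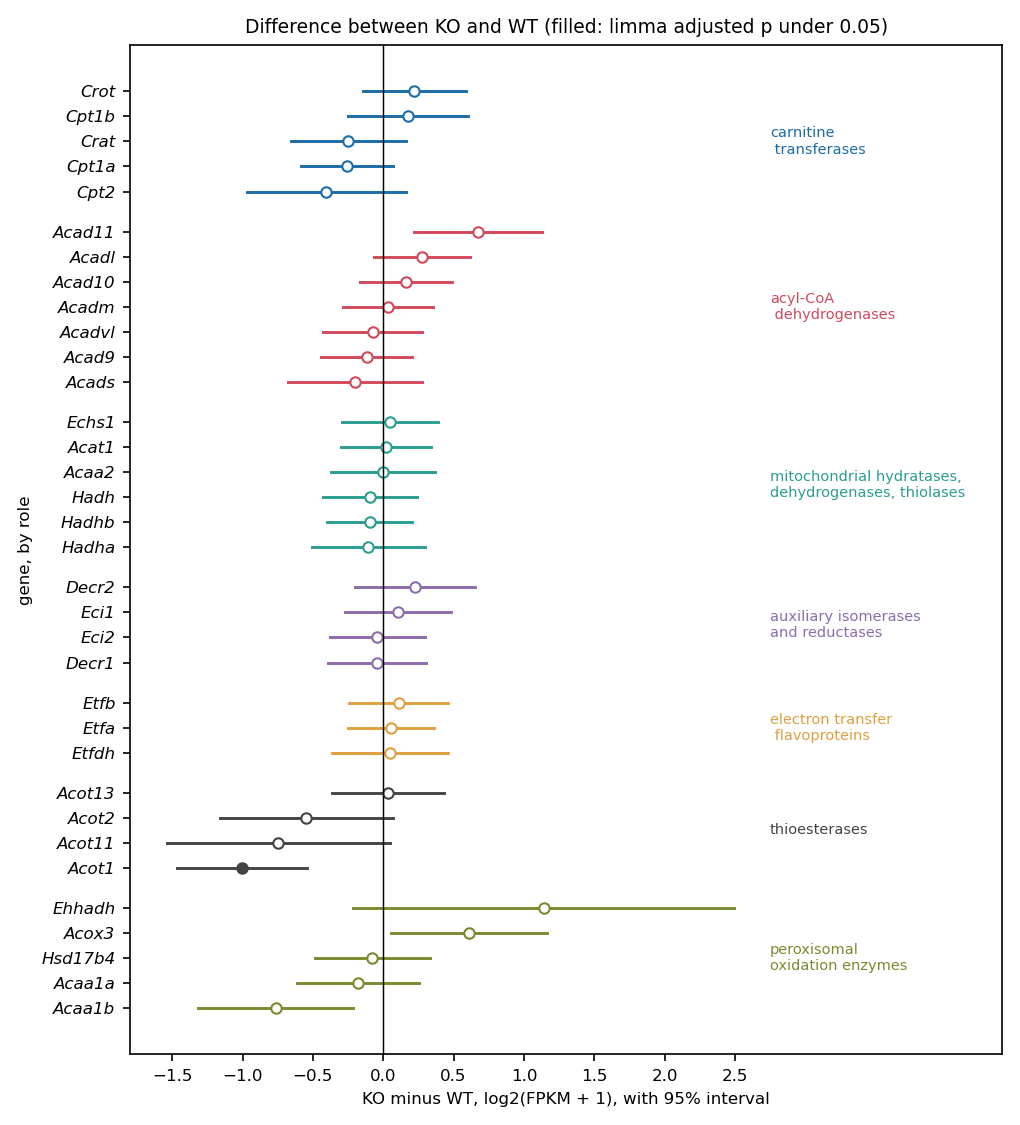
KO minus WT difference of log2(FPKM + 1) for each of the 34 oxidation genes, grouped by role, with its 95% interval from limma; the filled point passed an adjusted p of 0.05. Acot1 at −1.0 is the filled point, most other points lie near 0, and Ehhadh has the widest interval.

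Acot1 was the gene of the 34 that passed the test. It measured 28.7, 40.1 and 38.0 FPKM in the WT libraries (replicates 1 to 3), against 16.1, 13.8 and 22.3 FPKM in the KO libraries. All KO libraries lay below all WT libraries, and the KO mean was 48.9% of the WT mean. KO differed by −1.0 on the log2 scale (limma, SE 0.20, 95% interval −1.47 to −0.54, adjusted p 0.0435; exact two-sided permutation p 0.1, the smallest that 3 against 3 can give). The call sat close to the threshold: without WT replicate 2, WT replicate 3, KO replicate 1 or KO replicate 2 the adjusted p in limma was 0.117 to 0.184, at log2 fold changes of −0.97 to −0.86. It was also 0.0548 with quantile normalization, 0.0549 with a common FPKM sum and 0.108 with no filter on low levels. In a fit with the replicate number as a block, 0 of the 34 genes were called, so the Acot1 call was lost there too.

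Acot2 measured 47.8, 51.0 and 44.8 FPKM in the WT libraries, against 26.8, 23.6 and 53.7 FPKM in the KO libraries. Replicates 1 and 2 of KO lay below every WT library and KO replicate 3 lay above them all, and the gene did not pass (log2 fold change −0.55 in limma, 95% interval −1.16 to 0.07, adjusted p 0.316). Without KO replicate 3 its log2 fold change was −0.90, and without KO replicate 2 it was −0.33. Summed over both copies, which depends little on how shared reads were split because the transcripts are of like length (2272 and 2196 bases), the level was 76.5, 91.1 and 82.7 FPKM in WT and 42.9, 37.4 and 75.9 FPKM in KO, so that KO replicate 3 fell just short of the lowest WT library. The ratio of Acot1 to Acot2 was 0.60 to 0.85 in WT and 0.41 to 0.60 in KO, and the ranges overlapped.

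The 2 other thioesterase genes did not pass. Acot11, a thioesterase with a lipid-binding START domain, measured 0.41, 3.24 and 1.96 FPKM in the WT libraries, against 0.72, 0.32 and 0.65 FPKM in the KO libraries (log2 fold change −0.75 in limma, 95% interval −1.54 to 0.04, adjusted p 0.287). WT replicate 1 lay among the KO libraries, and leaving it out gave a log2 fold change of −1.19 and an adjusted p of 0.0425 in limma, while leaving out WT replicate 2 gave −0.40 and 0.638. Acot13, a small thioesterase found at mitochondria, was at 215 to 305 FPKM in WT and at 234 to 312 FPKM in KO (log2 fold change 0.03 in limma, 95% interval −0.37 to 0.43).

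Acot1 and Acot2 are the first 2 of 6 related thioesterase genes that follow each other on chromosome 12, in the order Acot2, Acot1, Acot4, Acot3, Acot5 and Acot6. The other 4 were looked at beside them, and none was picked independently of its values. Acot4 had the smallest p in a list of further oxidation genes, and the others were chosen after their values were seen. Acot4, which encodes a peroxisomal thioesterase, measured 13.8, 11.4 and 11.1 FPKM in the WT libraries, against 5.03, 4.63 and 8.10 FPKM in the KO libraries. All KO libraries lay below all WT libraries, by a log2 fold change of −0.95, and the gene missed the threshold (limma, SE 0.20, adjusted p 0.0526). Without KO replicate 3 it was among the genes called. Acot3 was at 0.79 to 1.19 FPKM in WT and at 0.44 to 1.23 FPKM in KO, Acot5 at 2.28 to 4.31 and at 2.05 to 6.40 FPKM, and Acot6 at 1.36 to 2.02 and at 0.89 to 1.63 FPKM. These 3 overlapped between the groups. KO replicate 3 was the highest of the KO libraries in all 6 genes. The Acot1 transcript aligned with those of Acot3, Acot4, Acot5 and Acot6 at 76.1% to 93.8% identity over 468 to 1270 columns, so a part of their reads may also be shared.

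**Figure D3:**
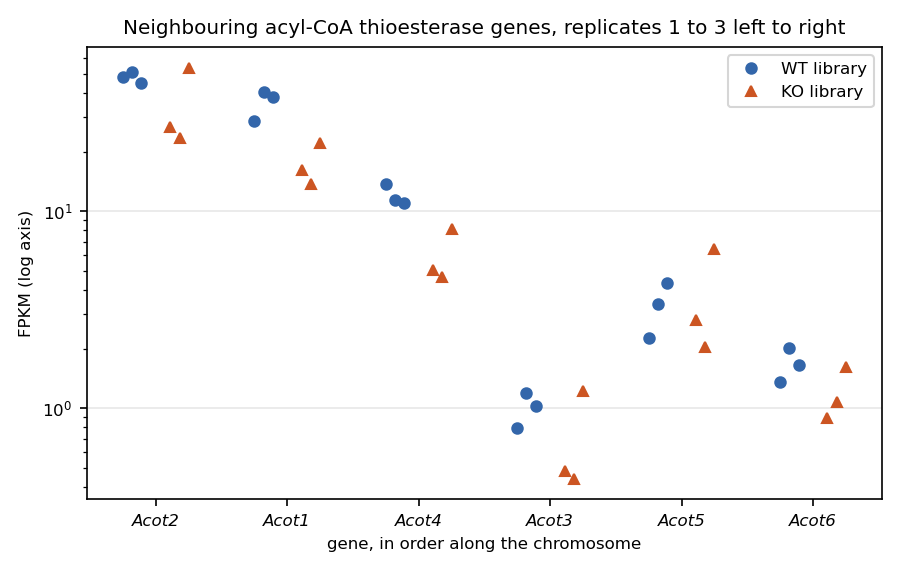
FPKM on a logarithmic axis of 6 neighbouring acyl-CoA thioesterase genes in each library, in their order along the chromosome; circles are WT and triangles KO, with replicates 1 to 3 from left to right. In Acot1 and Acot4 all 3 triangles lie below all 3 circles, and in every gene the right-hand triangle, KO replicate 3, is the highest of the KO libraries.

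Among the carnitine transferases 0 of 5 genes passed, and the muscle-type Cpt1b far exceeded the liver-type Cpt1a in this fat depot. Cpt1b measured 326, 359.8 and 420.5 FPKM in the WT libraries, against 404, 335 and 524 FPKM in the KO libraries, with overlapping groups (log2 fold change 0.17 in limma, 95% interval −0.25 to 0.60, adjusted p 0.658). Cpt1a measured 9.06, 11.8 and 10.3 FPKM in the WT libraries, against 8.41, 8.54 and 8.45 FPKM in the KO libraries. Its KO libraries were closely grouped and all below WT, and the difference did not pass (log2 fold change −0.26 in limma, 95% interval −0.59 to 0.07, adjusted p 0.368). Cpt1b exceeded Cpt1a 30.5- to 40.7-fold in the WT libraries and 39.2- to 62.0-fold in the KO libraries. The log2 ratio of Cpt1a to Cpt1b was −5.15 ± 0.21 in WT and −5.61 ± 0.33 in KO (SD, n = 3 each; exact two-sided permutation p 0.2), and the ranges overlapped. In KO replicate 1, where the summed skeletal muscle markers were at 451 FPKM, Cpt1b was at 404 FPKM, within the range of the WT libraries. The part of muscle RNA in the Cpt1b level was not tested.

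Cpt2 measured 53.7, 95.5 and 88.0 FPKM in the WT libraries, against 73.2, 44.5 and 58.9 FPKM in the KO libraries, so that WT replicate 1 lay among the KO libraries (log2 fold change −0.41 in limma, 95% interval −0.97 to 0.16, adjusted p 0.417). Crat, the mitochondrial transferase for acetyl groups, was at 110.2 to 158 FPKM in WT and at 107 to 136 FPKM in KO. Crot, which makes carnitine esters of medium chains in peroxisomes, was at 7.14 to 10.3 FPKM in WT and at 10.3 to 10.8 FPKM in KO, a log2 fold change of 0.22 that did not pass although the groups did not overlap (limma, adjusted p 0.491).

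The acyl-CoA dehydrogenases take the first step of each round and differ in the chain length they accept. None of the 7 passed. Acad11, which acts on long chains and carries a kinase-like domain, had the second-smallest p of all 34 genes. It measured 16.2, 23.5 and 21.9 FPKM in the WT libraries, against 29.9, 28.4 and 42.2 FPKM in the KO libraries. All KO libraries were above all WT libraries, with a KO mean at 163% of the WT mean (log2 fold change 0.67 in limma, SE 0.20, 95% interval 0.22 to 1.13, adjusted p 0.117). Acadl measured 1783, 1636 and 1668 FPKM in the WT libraries, against 1981, 1818 and 2402 FPKM in the KO libraries. Here too the groups did not overlap, by a narrow margin, and the difference did not pass (log2 fold change 0.28 in limma, 95% interval −0.06 to 0.62, adjusted p 0.355).

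Acadm, the medium-chain dehydrogenase, measured 1009.6, 960.2 and 915 FPKM in the WT libraries, against 1121, 929 and 919 FPKM in the KO libraries, and its log2 fold change was 0.04 with a 95% interval of −0.28 to 0.36 (limma, adjusted p 0.922). Acadvl, for very long chains, was at 804 to 1047 FPKM in WT and at 759 to 924 FPKM in KO. Acads, for short chains, was at 85.3 to 154 FPKM in WT and at 95.1 to 109 FPKM in KO. Thus in the WT libraries the long-chain, medium-chain and very-long-chain enzymes each exceeded the short-chain enzyme in every library. The 2 minor members Acad9, which also serves the assembly of respiratory complex I, and Acad10 lay at 15.7 to 20.2 FPKM and at 8.91 to 11.6 FPKM over all 6 libraries, with log2 fold changes of −0.12 and 0.16.

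The later enzymes of the mitochondrial round differed little between the groups. Hadha, Hadhb, Hadh, Echs1, Acaa2 and Acat1 had log2 fold changes from −0.11 to 0.05, and the lowest adjusted p was 0.742 in limma. Their groups overlapped in all 6 genes. Among all genes tested 24.9% did not overlap, so overlap was the usual outcome. Hadha and Hadhb encode the α and β subunits of the mitochondrial trifunctional protein, which carries out the last 3 steps on long chains. Hadha measured 756, 759.7 and 778 FPKM in the WT libraries, against 736, 555 and 876 FPKM in the KO libraries (log2 fold change −0.11 in limma, 95% interval −0.51 to 0.30, adjusted p 0.795). The WT libraries were close to each other, while KO replicate 2 lay below and KO replicate 3 above all of them. Hadhb measured 1103, 1127 and 1172 FPKM in the WT libraries, against 1109, 959 and 1118 FPKM in the KO libraries (log2 fold change −0.10 in limma, 95% interval −0.40 to 0.21, adjusted p 0.742). The ratio of Hadha to Hadhb was 0.66 to 0.69 in WT and 0.58, 0.66 and 0.78 in KO replicates 2, 1 and 3. The mean log2 ratio differed between KO and WT by −0.01 (exact two-sided permutation p 0.8), and its SD was 0.22 in KO and 0.02 in WT.

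The remaining genes of this group covered shorter chains. Hadh, the hydroxyacyl-CoA dehydrogenase for short chains, was at 761 to 971 FPKM in WT and at 765 to 872 FPKM in KO. Echs1, the short-chain hydratase, was at 305 to 415 and at 351 to 373 FPKM. The thiolase genes Acaa2 and Acat1 were at 920.0 to 1333 and at 188 to 234 FPKM in WT, with KO libraries at 1062 to 1154 and at 196 to 219 FPKM. In these 4 genes every KO library lay inside the range of the WT libraries.

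Auxiliary enzymes, which handle double bonds of unsaturated fatty acids, also overlapped between the groups in all 4 genes, as most genes tested did. The isomerase genes Eci1 and Eci2 had log2 fold changes of 0.11 and −0.04, and the dienoyl-CoA reductase genes Decr1, of mitochondria, and Decr2, of peroxisomes, had −0.04 and 0.22. Decr2 was at 20.2 to 27.1 FPKM in WT, against 23.6, 24.4 and 34.9 FPKM in KO, with KO replicate 3 above all other libraries.

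The electron transfer flavoproteins carry electrons from the dehydrogenases to ubiquinone, Etfa and Etfb as the subunits of the soluble carrier and Etfdh as the membrane oxidoreductase. Etfa measured 1225, 1127 and 1118 FPKM in the WT libraries, against 1321, 1119 and 1173 FPKM in the KO libraries (log2 fold change 0.06 in limma, 95% interval −0.25 to 0.36, adjusted p 0.866). Etfb measured 1109, 1345 and 1516 FPKM in the WT libraries, against 1441, 1484 and 1330.0 FPKM in the KO libraries (log2 fold change 0.11 in limma, 95% interval −0.24 to 0.46, adjusted p 0.749). Etfdh measured 513, 487 and 445 FPKM in the WT libraries, against 498, 393 and 625 FPKM in the KO libraries (log2 fold change 0.05 in limma, 95% interval −0.37 to 0.46, adjusted p 0.925). All 3 overlapped between the groups, as most genes tested did. The ratio of Etfa to Etfb ran from 0.74 to 1.11 in WT and from 0.75 to 0.92 in KO (exact two-sided permutation p 0.9), and WT replicate 1 was the library in which Etfa exceeded Etfb.

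Peroxisomal enzymes showed the widest spread of the role groups, with log2 fold changes from −0.77 to 1.14, and 0 of 5 passed. Ehhadh, the bifunctional hydratase and dehydrogenase of peroxisomes, measured 77.6, 65.7 and 62.0 FPKM in the WT libraries, against 95.3, 72.1 and 501 FPKM in the KO libraries. KO replicate 3 alone stood far above the other libraries, and KO replicate 2 lay within the WT range. The log2 fold change was 1.14 with a 95% interval of −0.21 to 2.49 (limma, adjusted p 0.339), and without KO replicate 3 it was 0.28. Ehhadh is abundant in liver. The summed level of the 9 hepatocyte markers in the table was 2.65 FPKM in KO replicate 3 and 0.57 to 2.47 FPKM in the other libraries, of which Apoa2 made up most in the WT libraries. Alb, Fga, Ahsg and Fgb were highest in KO replicate 3, at 0.33, 0.80, 0.44 and 0.08 FPKM against at most 0.17, 0.11, 0.06 and 0 elsewhere, Apoa1, Ttr and Serpina1a were at 0 there, and Hnf4a was at 0.02 FPKM. The part of hepatocyte RNA in the Ehhadh level was not tested.

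Acaa1b, a peroxisomal thiolase gene, measured 2.79, 6.27 and 5.22 FPKM in the WT libraries, against 2.5, 1.81 and 2.54 FPKM in the KO libraries. The groups did not overlap and WT replicate 1 lay close to the KO libraries (log2 fold change −0.77 in limma, SE 0.24, 95% interval −1.32 to −0.22, adjusted p 0.137). Leaving that library out gave a log2 fold change of −1.04 and an adjusted p of 0.0402 in limma, while leaving out WT replicate 2 gave −0.57 and 0.396. Its near-identical copy Acaa1a was higher in level, at 27.1 to 46.2 FPKM in WT and at 30.1 to 32.9 FPKM in KO, and overlapped between the groups (log2 fold change −0.18 in limma, adjusted p 0.648). Summed over both genes the level was 29.9 to 51.5 FPKM in WT and 32.7 to 35.4 FPKM in KO.

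Acox3 measured 4.20, 6.56 and 6.47 FPKM in the WT libraries, against 10.1, 6.22 and 12.1 FPKM in the KO libraries, so that KO replicate 2 lay among the WT libraries (log2 fold change 0.61 in limma, 95% interval 0.06 to 1.17, adjusted p 0.223). Hsd17b4, the other bifunctional enzyme of peroxisomes, was at 87.2 to 115 FPKM in WT and at 73.7 to 102 FPKM in KO, with a log2 fold change of −0.08.

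**Figure D4:**
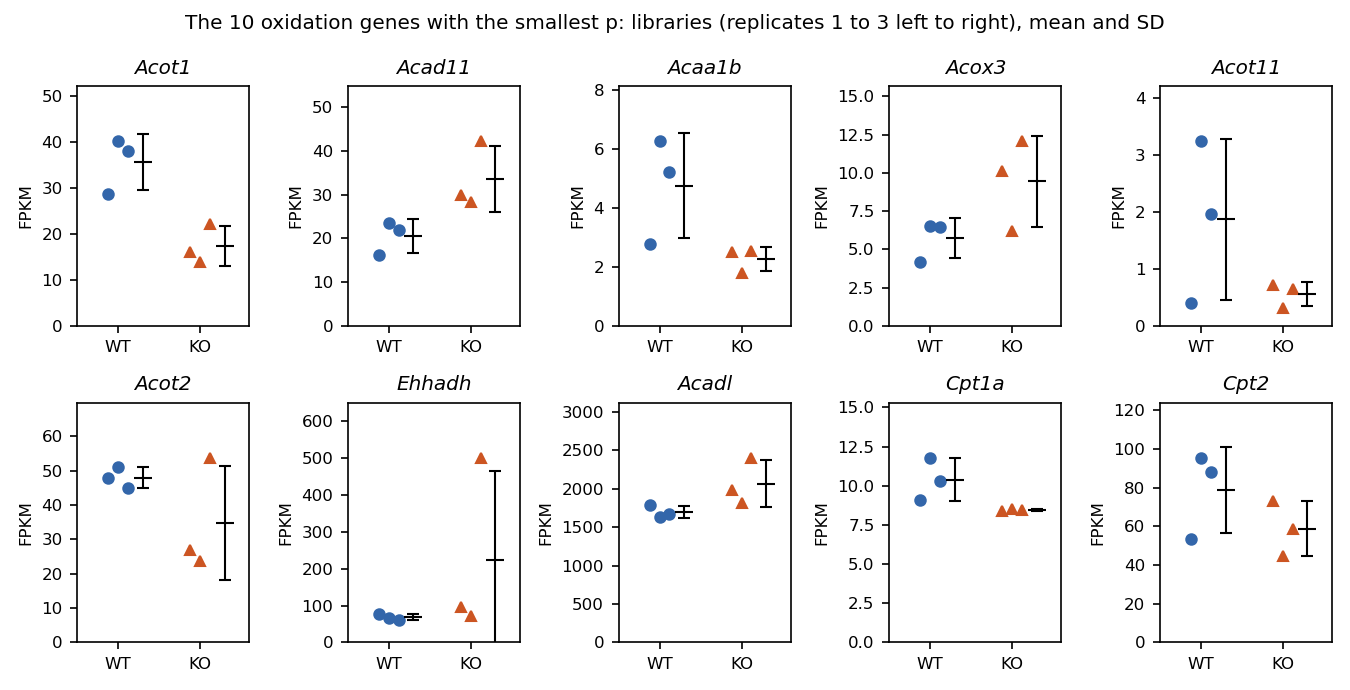
FPKM of the 10 oxidation genes with the smallest p in limma, each panel with its own axis from 0; circles are WT and triangles KO libraries with replicates 1 to 3 from left to right, and bars give the mean and SD of 3 libraries (for Ehhadh in KO the lower bar is cut at 0). WT and KO are apart in Acot1, Acad11, Acaa1b, Acadl and Cpt1a and overlap in the other 5, and in Ehhadh 1 KO library at 501 FPKM sets the KO mean.

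A list of 44 further genes of oxidation and ketone metabolism was read beside these, of which 43 were in the table and 38 passed the filter on low levels. None passed an adjusted p of 0.05 in limma, 4 had an unadjusted p under 0.05 against 19.2% of all genes tested, and the median log2 fold change was −0.03. The 3 with the smallest p were Acot4, described above, Abcd3 and Nudt19. Abcd3, a transporter that brings fatty acids into peroxisomes, measured 118, 144 and 94.5 FPKM in the WT libraries, against 79.7, 51.8 and 78.2 FPKM in the KO libraries (log2 fold change −0.76 in limma, SE 0.21, adjusted p 0.102). Nudt19, a peroxisomal hydrolase of coenzyme A, measured 28.5, 32.9 and 32.7 FPKM in the WT libraries, against 25.3, 24.8 and 23.1 FPKM in the KO libraries (log2 fold change −0.35 in limma, SE 0.13, adjusted p 0.203). In all 3 genes every KO library lay below every WT library, which follows in part from picking them by p. Over the list, 5 of the 38 genes tested (13.2%) did not overlap between the groups, against 24.9% of all genes tested.

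Of 24 regulators of oxidation, 21 passed the filter on low levels and 0 passed an adjusted p of 0.05 in limma, while 10 had an unadjusted p under 0.05, against 19.2% of all genes tested. Among the 21 tested, 13 had a lower and 8 a higher KO mean of log2(FPKM + 1). Of the 10, Lpin1, Sirt1, Ppargc1a and Rxra were higher in KO, with log2 fold changes of 1.39, 0.82, 0.52 and 0.38 in limma, and the others were lower. Of the 21, 8 (38.1%) did not overlap between the groups, against 24.9% of all genes tested. The 3 with the smallest p were all lower in every KO library than in any WT library without passing. That separation follows in part from picking them by p. Prdm16, a cofactor of brown fat identity, measured 5.25, 4.91 and 4.13 FPKM in the WT libraries, against 3.0, 1.89 and 1.68 FPKM in the KO libraries (log2 fold change −0.87 in limma, SE 0.19, adjusted p 0.0519). Cebpb, a transcription factor of early fat cell differentiation, measured 52.0, 45.5 and 59.6 FPKM in the WT libraries, against 38.4, 20.7 and 23.2 FPKM in the KO libraries (log2 fold change −0.95 in limma, SE 0.23, adjusted p 0.0674). Esrra, a nuclear receptor that drives mitochondrial genes, measured 47.1, 58.8 and 65.3 FPKM in the WT libraries, against 37.7, 28.3 and 38.4 FPKM in the KO libraries (log2 fold change −0.70 in limma, SE 0.18, adjusted p 0.0813).

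Oxidation genes are classical targets of PPAR and ERR nuclear receptors, so their RefSeq promoter windows were searched. A window of 250 bases before to 50 after the start was found for 26 of the 34 genes in the GRCm38.p6 table. Genes without a window included Cpt1b, Acaa2, Acat1 and Hsd17b4. A single window was kept per gene, and for some genes, among them Cpt1a and Eci2, its start lies inside the annotated gene. The direct repeat AGGTCANAGGTCA was in 0 of the 26 windows and in 0.0444% of 27025 windows of the same length, and TCAAGGTCA was in 0 of 26 and in 0.407%, both searched on both strands. The single element AGGTCA, which lies inside both motifs, was in 4 of the 26 windows (15.4%), in 16.0% of all windows and in 12.1% of the 10439 windows of genes tested, whose median GC content (60.7%) was that of the 26 windows. For TCAAGGTCA the share in the windows of genes tested was 0.259%, and for the direct repeat 0.0479%. At these background shares 26 windows would seldom hold either motif, so the 0 counts draw no contrast with other genes. The 4 genes were Acadm, Echs1, Acadvl and Cpt1a. The stretches of Cpt1a, the liver-type entry enzyme with closely grouped KO values, and Acadvl are shown with that element in capitals, read along the gene's own strand. The Cpt1a stretch is at chr19:3323182-3323237 on the plus strand, with the element in the opposite orientation. It lies inside the gene as annotated, at chr19:3322326-3385735. The Acadvl stretch is at chr11:70015485-70015540 on the minus strand.
Cpt1a: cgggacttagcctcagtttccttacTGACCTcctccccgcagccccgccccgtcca
Acadvl: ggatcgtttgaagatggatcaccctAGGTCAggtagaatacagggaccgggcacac
A match is a string of letters and no measured binding site, and the absence of one says only that these letters are not in this window.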

How the data were processed

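The authors deposited FPKM values for 6 libraries, per the file headers, rounded to 2 decimals; HISAT2 2.0.4, Bowtie2 2.2.5, DESeq2 and mm10 are named in the submitters' processing notes with no role. The counting tool, strand handling and filters are not given in the sources used here. Values were transformed as log2(FPKM + 1), and KO was compared with WT in limma 3.58.1 (R 4.3.3; lmFit, eBayes with an intensity trend, no covariates) over the 13331 genes whose mean reached 0.5 FPKM. Fold changes on this scale understate the change of low genes. On simulated data the fit called 195 of 200 genes changed by 1.5 log2 units and 17 unchanged ones, and 0 genes when none was changed. That change is larger than any of the 34 genes showed (−1.0 to 1.14), and the simulated noise was normal and independent between libraries. The simulation therefore checks the code and does not give the sensitivity or error rate of the fit on these libraries.

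The members, lists and tests were chosen with earlier results of these data known. Full values were given for genes past the threshold, then for those with the smallest p up to 10, then for Cpt1a, Cpt1b, Cpt2, Hadha, Hadhb, Etfa, Etfb, Etfdh and Acadm; of the other lists, the 3 genes with the smallest p were named. Depth was estimated from whole-read steps between low values of transcripts of 500 to 1300 nt: 74.9% to 82.1% of 319 to 363 values per library lay within 0.2 of a whole read, against 37.3% to 46.0% with lengths shuffled. The depth was the one with the largest share for the true lengths. The shuffled share was taken at that depth without a search of its own, which favours the true lengths. Effective transcript lengths are not given in the sources used here, so whole reads were not recovered across the table and no count model was fitted. Sequences came from GENCODE vM21 transcripts and RefSeq promoters (GRCm38.p6), and protein sequences were not used here.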

Additional observations from a re-analysis of the deposited data

How the results depend on the processing

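Of 17 alternative fits, Acot1 kept its direction in all, with log2 fold changes of −1.19 to −0.86, and its call in 9; adjusted p in limma ran from 0.00191 to 0.184. The count of oxidation genes called was 1 as reported, 0 with no filter, quantile normalization, a common FPKM sum or the replicate block, 7 with array weights, and 0 to 3 when 1 library was left out (3 on dropping WT replicate 1, 1 on dropping KO replicate 3 and 0 for each of the other 4). The number called among all genes was 295 as reported, 35 with no filter, 191 with a common FPKM sum, 3181 with array weights (WT replicate 2 had a weight of 6.70, the others 0.37 to 1.67), 167 with the replicate block, and 31 to 370 without 1 library (370, 39 and 31 on dropping WT replicates 1, 2 and 3, and 121, 89 and 87 on dropping KO replicates 1, 2 and 3); lower genes made up 45.4% as reported, 25.8% and 29.9% on dropping KO replicates 2 and 3, 55.4% on dropping KO replicate 1, 53.5% on dropping WT replicate 1, and 52.4% with median-of-ratios scaling. Of the further oxidation genes, 1 was called with a filter at 5 FPKM, 1 with robust eBayes, 9 with array weights and 0 to 1 without 1 library. Of the regulators, 1 was called with a filter at 5 FPKM, with quantile normalization, with median-of-ratios scaling and with robust eBayes, 9 with array weights and 0 to 2 without 1 library. The causes were not tested, other than that the filter changes the genes tested and leaving out a library reduces the samples. The median of the 34 genes ran from −0.12 to 0.05, beside a spread between replicates of 0.15, taken once from log2(FPKM + 1) without further scaling. Genes of both directions cancel in such a median, so it says little about single genes. Replicate numbers were not taken as pairs, since deviations of same-numbered libraries correlated at 0.043 to 0.068, although 6 of 6 libraries correlated best with their own number in the other group, a hint from the data and not the design. With the replicate block the log2 ratio of Cpt1a to Cpt1b was −0.46 as before (−0.62 to −0.29 without 1 library, the ends on dropping KO replicates 2 and 3), and no call other than Acot1 changed among the 34 genes.

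Direction held in every fit for 19 of the 34 genes; for 9 of the other 15 it turned only when a library was left out. Among genes that kept their direction, Cpt1b lay between 0.0048 and 0.33, the ends on dropping KO replicates 3 and 2, Cpt2 from −0.66 to −0.22 and Acadl from 0.16 to 0.36. Among those that did not, without 1 library Acadvl ran from −0.16 to 0.028, Acadm from −0.056 to 0.087, Hadha from −0.26 to 0.071, Echs1 from −0.053 to 0.17, Acaa2 from −0.13 to 0.13, Acat1 from −0.055 to 0.10, Eci1 from −0.029 to 0.26, Eci2 from −0.16 to 0.046, Decr1 from −0.17 to 0.041, Etfa from −0.012 to 0.11, Etfb from −0.011 to 0.21, Etfdh from −0.12 to 0.21, Acot13 from −0.11 to 0.14 and Hsd17b4 from −0.16 to 0.075, and the log2 ratios of Hadha to Hadhb from −0.12 to 0.097 and of Etfa to Etfb from −0.18 to 0.11. Acaa2 was at −0.017 with quantile normalization, −0.025 with median-of-ratios scaling and −0.0031 with array weights, Acat1 at −0.0056 with median-of-ratios scaling, Eci2 and Decr1 at 0.0092 and 0.011 with quantile normalization, and Decr2 and Acot13 at −0.024 and −0.031 with array weights.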

Other observations

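KO replicate 3 stood apart in several genes of fatty acid handling beyond Ehhadh, which were chosen after their values were seen. Slc27a2, which encodes a very-long-chain acyl-CoA synthetase and fatty acid transporter, was at 145 FPKM in KO replicate 3 and at 13.2 to 46.3 FPKM in the other 5 libraries. Hacl1, a peroxisomal lyase of branched-chain oxidation, was at 41.4 FPKM against 8.97 to 16.9 FPKM. Pdk4, a kinase that restrains pyruvate oxidation, was at 785 FPKM against 204 to 288 FPKM. Ppara, the nuclear receptor known for inducing several of these genes in liver, was lowest in the same library, at 27.8 FPKM against 69.4 to 83.6 FPKM. None of these 4 genes passed in limma, where their adjusted p ran from 0.299 to 0.731. Lpin1, a phosphatidate phosphatase that also acts as a coactivator, also chosen after its values were seen, measured 29.0 to 34.8 FPKM across the WT libraries, against 88.8, 44.3 and 158 FPKM in the KO libraries, each above WT (limma, log2 fold change 1.39, SE 0.37, adjusted p 0.0918).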
